A study of Homo sapiens with 12 samples.

Results

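The collagen and laminin genes were followed in 6 established ovarian cancer cell lines. Members were chosen by name alone, as the protein-coding genes whose symbol is COL, digits, A and digits, or LAMA, LAMB or LAMC and a digit. The rule found 56 genes, 44 collagens and 12 laminins, among the 60669 genes of the count table. Of these, 42 (31 collagens and 11 laminins) passed the filter on low counts that left 18720 genes for testing, and 14 did not.

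The study set the sensitive lines HeyA8, SK-OV-3 (SKOV3 in the labels) and OV2008 against a resistant partner derived from each: HeyA8-MDR from HeyA8, SK-OV-3-TR from SK-OV-3, and C13 from OV2008. The lines thus form 3 families of 2. The sample labels call all 3 resistant lines resistant to chemotherapy, the design text names platinum, and the study's methods name carboplatin for HeyA8-MDR, taxol for SK-OV-3-TR and cisplatin for C13. Each line received quinacrine (QC), an antimalarial drug, at 8 µM for 6 h, or buffer (vehicle), and polyA RNA was sequenced in 1 library per line and treatment, 12 in all. Sensitive vehicle, sensitive QC, resistant vehicle and resistant QC therefore hold 3 libraries each, 1 from each family, and every resistant line is a single selected line. Whether any line was cultured more than once is not stated, so the spread measured here is that between lines, and a family's value rests on 2 related lines.

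Libraries held between 17782556 and 30585059 counts, and the members took between 0.324% (C13 with vehicle) and 1.17% (SK-OV-3 with vehicle) of them. Levels are given as CPM, counts brought to a common library total after TMM scaling (a factor per library that lets libraries of different composition be compared), and where 2 values are given for a line the first is vehicle and the second QC. Summed markers of fibroblasts, the usual source of collagen I in tumors, lay between 0.200 and 16.3 CPM, and those of leukocytes between 0.318 and 1.6 CPM. Basal and squamous epithelial markers summed to between 4026 and 15092 CPM in OV2008 and C13 with all 7 above 3 counts, against 33.7 to 158 in the other 4 lines, whereas the 4 ovarian markers summed to 13.1 to 28.7 CPM in OV2008 and C13 against 267 to 554. In OV2008 and C13 the markers thus go against the labelled ovarian origin, and the family is called by its line name only. The part of this in the differences between families was not tested. The endothelial list, with 3 of 4 genes found, summed to 97.8 to 179 CPM in the HeyA8 family, where CDH5 held 89.3 to 176, and to 0.0908 to 14.8 elsewhere. With QC, HeyA8 lay nearer to HeyA8-MDR than with vehicle: over 56 genes at least 8-fold higher in HeyA8-MDR its QC library had covered a median of 68.2% of the log2 distance, against at most 11% in SK-OV-3 and OV2008. Over 113 genes at least 8-fold lower in HeyA8-MDR the median was 23.4%, and HeyA8-MDR with QC had itself covered 16.5% of the way to HeyA8. The main QC results are therefore also given without HeyA8.

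Collagens are triple helices of 3 chains, and each type builds its own structure: fibrils (types I, III and V), the sheet-like network of basement membranes (type IV), beaded filaments (type VI), links between fibrils (types IX, XII and XVI) or the anchors that fix epithelium to stroma (types VII and XVII). Laminins are cross-shaped trimers of an alpha, a beta and a gamma chain and form the other network of the basement membrane. A trimer needs all of its chains in the same cell, and LAMA3 and LAMB3 belong to the one by which epithelial cells hold on through hemidesmosomes. The trimers of LAMA5 and LAMC1 with LAMB1 or LAMB2 are the widespread laminins of mature basement membranes.

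The 6 genes of collagen IV lie in head-to-head pairs that are transcribed away from a shared stretch, and in the RefSeq annotation of GRCh38.p14 the nearest starts are 126 bases apart for COL4A1 and COL4A2 (chromosome 13), 418 for COL4A4 and COL4A3 (chromosome 2) and 379 for COL4A6 and COL4A5 (chromosome X). The whole stretch of the first pair is printed here, with the 250 bases before the start of COL4A3, COL4A5, COL5A1, COL17A1 and LAMB2, chosen because their levels separated families or, for COL5A1, the resistant from the sensitive lines. Capitals mark GGGCGG (the GC box), the letters CCAAT (the CCAAT box) and the letters TATAAA (the TATA box) on either strand, none of which overlapped another. TGANTCA (the AP-1 element) was also searched and was in none of these sequences, and in 6.57% of all windows and 5.45% of member windows.
COL4A1 to COL4A2, chr13:110307158-110307283, plus strand: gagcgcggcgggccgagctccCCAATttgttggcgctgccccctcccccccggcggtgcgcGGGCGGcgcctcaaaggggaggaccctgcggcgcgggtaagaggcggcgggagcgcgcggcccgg
COL4A3, chr2:227164374-227164623, plus strand: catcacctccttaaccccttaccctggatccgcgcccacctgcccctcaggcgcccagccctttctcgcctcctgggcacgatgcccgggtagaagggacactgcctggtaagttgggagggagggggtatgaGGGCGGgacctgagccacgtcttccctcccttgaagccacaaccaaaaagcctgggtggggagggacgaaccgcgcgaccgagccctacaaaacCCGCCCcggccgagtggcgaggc
COL4A5, chrX:108439588-108439837, plus strand: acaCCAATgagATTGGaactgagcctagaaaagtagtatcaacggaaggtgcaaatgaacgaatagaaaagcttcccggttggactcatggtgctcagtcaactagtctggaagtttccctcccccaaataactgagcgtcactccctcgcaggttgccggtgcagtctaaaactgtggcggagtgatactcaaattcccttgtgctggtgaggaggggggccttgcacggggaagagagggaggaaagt
COL5A1, chr9:134641553-134641802, plus strand: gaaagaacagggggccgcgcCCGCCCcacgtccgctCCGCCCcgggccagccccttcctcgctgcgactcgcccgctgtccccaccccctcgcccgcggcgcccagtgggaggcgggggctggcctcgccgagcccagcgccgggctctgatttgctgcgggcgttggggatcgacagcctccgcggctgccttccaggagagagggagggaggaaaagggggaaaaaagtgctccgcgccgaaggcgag
COL17A1, chr10:104085881-104086130, minus strand: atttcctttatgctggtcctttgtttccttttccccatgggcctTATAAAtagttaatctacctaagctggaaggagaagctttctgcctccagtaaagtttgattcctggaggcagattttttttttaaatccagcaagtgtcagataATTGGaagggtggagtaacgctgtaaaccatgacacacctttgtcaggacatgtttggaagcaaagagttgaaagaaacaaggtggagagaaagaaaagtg
LAMB2, chr3:49133051-49133300, minus strand: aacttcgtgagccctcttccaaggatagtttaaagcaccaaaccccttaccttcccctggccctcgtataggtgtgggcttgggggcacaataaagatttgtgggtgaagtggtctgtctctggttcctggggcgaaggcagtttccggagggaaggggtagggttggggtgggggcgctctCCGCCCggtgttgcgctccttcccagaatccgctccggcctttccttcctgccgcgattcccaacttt
These sequences ranged from rich to poor in CG. The COL4A1 to COL4A2 stretch had 80.2% G and C, with 20 CG pairs in its 126 bases. Of the longer sequences, COL5A1 had 74% with 29 CG pairs and COL17A1 had 40.4% with 1, against medians of 58% and 11 CG pairs over 35116 windows of the same 250 bases before a start. COL17A1 was the only sequence shown with TATAAA, which 10.7% of all windows and 14.5% of the 55 windows of 41 members held. GGGCGG stood in COL4A3, COL5A1 and LAMB2 and in the COL4A1 to COL4A2 stretch, but not in COL4A5 or COL17A1, with shares of 42.6% over all windows and 58.2% over those of members. CCAAT was found between COL4A1 and COL4A2, at 2 places in COL4A5 and in COL17A1, and in 32% of all windows against 25.5% of member windows.

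Each family had its own leading members. Divided by the exon length of the canonical transcript in kilobases, so that genes can be compared, LAMB3 held 27.1% of the summed member level in HeyA8 with vehicle and 40.7% in its resistant partner. COL4A1, COL4A2 and LAMC1 led in SK-OV-3-TR with 18.8%, 16.2% and 16.0%. COL17A1, the transmembrane collagen of hemidesmosomes, held 35.2% in OV2008 and 23.4% in C13, where LAMB3 held 25.1%. By class, collagen VI took 21.3% and 22.2% of that sum in HeyA8 and HeyA8-MDR with vehicle but 0.296% in OV2008 and 0.0341% in C13, and fibrillar collagens took between 1.21% and 5.04% in the 6 lines. COL12A1 and COL18A1 led in SK-OV-3 with 18.5% and 18.1%. With QC, LAMB3 held 34.7% in HeyA8, and COL17A1 came first in C13 with 26.8%.

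**Figure D1:**
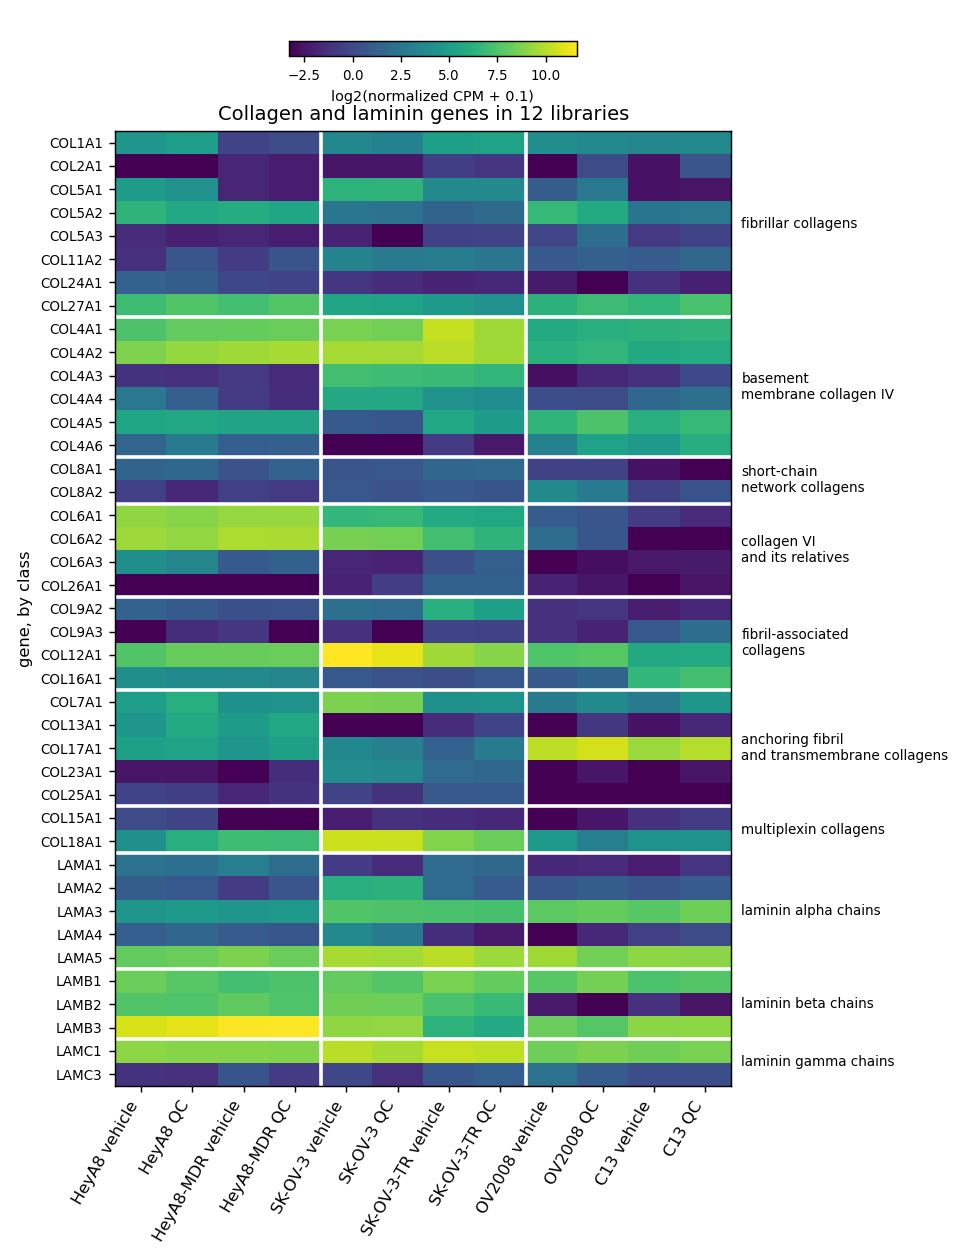
Heat map of 41 of the 42 tested members (rows, by class) in the 12 libraries (columns, by line and treatment); color gives log2 of CPM plus 0.1, 1 library per cell. Families differ for many members, as for COL17A1 (674 to 1605 CPM in OV2008 and C13, 2.51 to 39.0 elsewhere).

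Family differences were tested in the 6 vehicle libraries by edgeR's quasi-likelihood test, with the 2 lines of a family as replicates and resistance as a term, each family against the mean of the other 2 on the log2 scale. At an adjusted p (Benjamini-Hochberg over all 18720 genes) under 0.05, 7 of the 42 members differed in the HeyA8 family (5 higher, 2 lower) against 7.39% of all genes, 15 in the SK-OV-3 family (12 higher, 3 lower) against 11.9%, and 12 in the OV2008 family (3 higher, 9 lower) against 9.79%. For higher calls alone the background was 4.64%, 7.70% and 5.58%, and for lower calls 2.76%, 4.16% and 4.20%. At an unadjusted p under 0.05 the members were 12 higher and 6 lower in the HeyA8 family (14.1% and 11.5% of all genes, 25.6% together), 19 and 7 in the SK-OV-3 family (18.5% and 13.4%, 31.9% together) and 3 and 18 in the OV2008 family (15.8% and 13.6%, 29.4% together). Since each contrast is against the mean of both other families, which hold the same libraries, the 3 sets of calls are not independent. Over all 12 libraries, all 4 of the HeyA8 family lay above the other 8 for 7 members and below them for 3 (9.71% and 8.23% of all genes), the SK-OV-3 family for 9 and 5 (13.6% and 10.2%) and the OV2008 family for 4 and 10 (11.0% and 8.41%).

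The HeyA8 family was marked by high collagen VI and COL13A1 and by low LAMA3. COL6A1 stood at 563 and 473 CPM in HeyA8 and 653 and 631 in HeyA8-MDR, at 95.0 and 103 in SK-OV-3, 57.4 and 47.2 in SK-OV-3-TR, 1.96 and 1.41 in OV2008 and 0.533 and 0.264 in C13. Its log2 difference was 6.14 ± 0.475 (SE, edgeR adjusted p = 0.00522). COL6A2 followed the same order, from 585 to 868 CPM in the HeyA8 family through 85.6 to 376 in the SK-OV-3 family to 1.5 to 3.98 in OV2008 and 0 counts in both C13 libraries (edgeR adjusted p = 0.0430). No library of another family reached those of the HeyA8 family for either gene.

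LAMA3, the alpha chain found at hemidesmosomes, was at 22.2 to 26.5 CPM in the HeyA8 family and 153 to 327 elsewhere (-3.13 ± 0.328, edgeR adjusted p = 0.00834). COL13A1, a transmembrane collagen of cell adhesions, was at 23.1 and 57.1 CPM in HeyA8 and 30.8 and 49.3 in HeyA8-MDR and had at most 13 counts in any other library (adjusted p = 0.00954).

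LAMB2 and COL4A3 were also called in this contrast, at adjusted p = 0.00786 and 0.0311, but their HeyA8 values did not stand apart from both other families. LAMB2 was at 180 to 250 CPM in the HeyA8 family, within the 109 to 335 of the SK-OV-3 family, and COL4A3 was at 0.237 to 0.467, within the 0.0560 to 0.867 of OV2008 and C13. Without SK-OV-3-TR, 14 of 43 members were called, against 9.44% of all genes. Without HeyA8 or HeyA8-MDR the family holds 1 vehicle library, so such a fit cannot show whether a call depends on 1 line. COL6A1 kept its call whichever line of another family was left out, whereas COL4A3 kept it in at most 2 of these fits.

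In the SK-OV-3 family the 12 higher members were 3 of the 6 collagen IV genes, LAMA2, LAMA3, LAMB2, LAMC1, COL18A1, COL12A1, COL23A1, COL11A2 and COL5A1. COL4A3, one of the collagen IV chains best known from the filter of the kidney, was at 139 and 122 CPM in SK-OV-3 and 108 and 93.2 in SK-OV-3-TR, and no library of another family exceeded 0.867. The log2 difference was 8.76 ± 0.581 (edgeR adjusted p = 0.00490). COL4A1 and COL4A2, the ubiquitous pair, were higher by 2.60 ± 0.351 (adjusted p = 0.0145) and 2.31 ± 0.317 (adjusted p = 0.0151).

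COL18A1, a basement membrane collagen that carries endostatin, was at 1431 and 1407 CPM in SK-OV-3 and 444 and 315 in SK-OV-3-TR against at most 125 in another line (4.59 ± 0.892, adjusted p = 0.0317). COL12A1, which links fibrils to their surroundings, reached 3171 and 2263 CPM in SK-OV-3 and 713 and 489 in SK-OV-3-TR, against 53.6 to 297 elsewhere (3.26 ± 0.571, adjusted p = 0.0255). The 3171 is the highest CPM of any member in any library, but not when divided by length. LAMC1 was at 820 to 1320 CPM against 326 to 541 (1.55 ± 0.261, adjusted p = 0.0234).

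COL23A1, a transmembrane collagen, had 59 to 375 counts in the SK-OV-3 family and at most 5 in any other library (adjusted p = 0.0138). COL11A2 (3.40 ± 0.599, adjusted p = 0.0259) and COL5A1 (5.06 ± 0.919, adjusted p = 0.0276) were the fibrillar members called higher, and LAMB2, LAMA2 and LAMA3 were called at adjusted p = 0.00934, 0.0459 and 0.0368. LAMA2 rested on SK-OV-3 itself, with 65 and 76.5 CPM there and 3.63 and 1.91 in SK-OV-3-TR, not far above the 0.519 to 2.03 elsewhere. LAMA3 was not above the OV2008 family, where it reached 327 CPM. COL5A1 and LAMB2 did not stand above the HeyA8 family, since COL5A1 in SK-OV-3-TR lay below HeyA8. With vehicle, LAMB2 had a mean of 249 CPM here, 221 in the HeyA8 family and 0.222 in the OV2008 family.

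Among the lower members of the SK-OV-3 family were COL17A1 (-4.72 ± 0.553, adjusted p = 0.0127) and COL27A1 (-1.61 ± 0.380, adjusted p = 0.0487), a fibrillar collagen of cartilage that lay between 19.1 and 45.3 CPM here and between 78.1 and 194 elsewhere. Without C13, 3 of 43 members were called, 2 of them among the 15, against 0.916% of all genes. Without OV2008, 9 of 44 were, 7 of them among the 15, against 3.13% of all genes. COL4A3 and LAMB2 kept their calls whichever line of another family was left out. LAMA3, COL11A2 and COL27A1 were called in 0 of these fits, LAMA2 in at most 1 and LAMC1 in at most 2.

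The OV2008 family had few or no counts of several members that were abundant in both other families. LAMB2, a beta chain that pairs with LAMA5 and LAMC1, had 2 counts and 0 counts in OV2008 and 10 and 2 in C13, against 2053 to 8001 counts in the other 8 libraries (edgeR adjusted p = 0.00611). COL6A1 had 7 to 35 counts here and 891 to 12934 elsewhere (adjusted p = 0.00684), and COL6A2 had 71 and 34 counts in OV2008 and 0 in C13 (adjusted p = 0.0377). The level of COL4A2 was 54.0 to 93.5 CPM against 426 to 1085 (-3.54 ± 0.401, adjusted p = 0.0118), and that of COL4A1 55.6 to 83.5 against 178 to 1280 (-2.61 ± 0.411, adjusted p = 0.0224).

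COL4A3, COL5A1, COL13A1 and LAMC1 were the other lower members, at adjusted p = 0.0172, 0.0477, 0.0485 and 0.0491. Of these, LAMC1 was still at 326 to 413 CPM, below the 472 of the lowest other library, and lower by 1.26 on the log2 scale (SE 0.287). COL4A3, COL5A1 and COL13A1 did not stand below both other families. With vehicle, COL4A3 had a mean of 0.194 CPM here and 0.411 in the HeyA8 family. COL13A1 had 0.0333 here and 0.133 in the SK-OV-3 family, and COL5A1 in OV2008 lay above HeyA8-MDR.

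Higher in the OV2008 family were 3 members. COL17A1 stood at 1118 and 1605 CPM in OV2008 and 674 and 983 in C13, against 36.2 and 39.0 in HeyA8, 22.8 and 36.7 in HeyA8-MDR, 12.6 and 9.08 in SK-OV-3 and 2.51 and 6.68 in SK-OV-3-TR, a log2 difference of 6.05 ± 0.449 (edgeR adjusted p = 0.00591). COL4A6 was at 9.35 and 40.8 CPM in OV2008 and 26.0 and 64.2 in C13 and at most 6.73 elsewhere, with 0 counts in SK-OV-3 (4.41 ± 0.943, adjusted p = 0.0429). LAMA3 was at 216 to 327 CPM against 22.2 to 190 (1.84 ± 0.266, adjusted p = 0.0192).

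The fit behind these 12 calls was repeated without each line of the other families in turn. LAMC1 and COL13A1 were called in 1 of these fits, LAMA3, COL5A1 and COL4A6 in 3, and the rest in all 4. Without OV2008 or C13 the family holds 1 vehicle library, so such a fit cannot show whether a call depends on 1 line. The basal and squamous marker list moved with the same family, and its part in these differences was not tested.

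LAMA3 and LAMB3, chains of 1 laminin, did not move together. Per kilobase, LAMB3 stood at 428 in HeyA8 with vehicle and LAMA3 at 2.09, and in HeyA8-MDR the values were 748 and 2.13. In OV2008 with vehicle LAMB3 and LAMA3 were at 73.1 and 21.8, in C13 at 129 and 20.3, in SK-OV-3 at 143 and 17.8, and in SK-OV-3-TR at 20.1 and 14.9. The HeyA8 family thus had the highest LAMB3 and the lowest LAMA3, and both were closest to each other in SK-OV-3-TR. Over the 12 libraries, which share lines, their log2 levels gave a Pearson r of -0.745.

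The chains of the LAMA5 laminins were more even. LAMA5 lay between 23.5 and 95.6 CPM per kilobase, LAMB1 between 25.3 and 69.2 and LAMC1 between 41.1 and 167 in all 12 libraries. LAMB2 lay between 19.1 and 58.8 in 8 libraries but at no more than 0.0585 in OV2008 and C13, so that LAMB1 was the only abundant beta chain besides LAMB3 in that family. LAMB1 and LAMC1 gave an r of 0.488 and LAMA5 and LAMC1 one of 0.573.

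**Figure D2:**
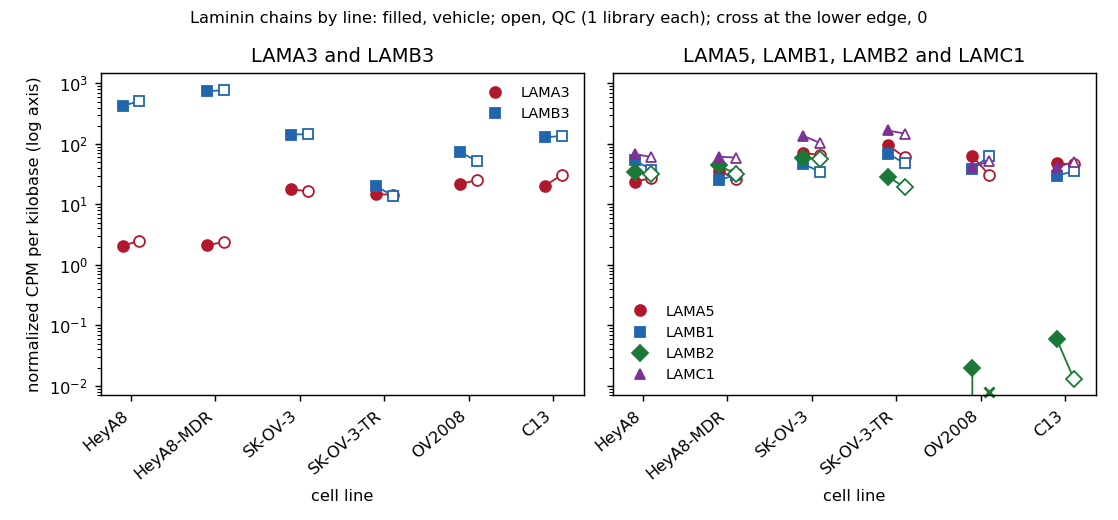
CPM per kilobase (log axis) of LAMA3 and LAMB3 (left) and the LAMA5 laminin chains (right) in the 6 lines; filled symbols are vehicle, open symbols QC, 1 library each, and a cross at the lower edge is a value of 0. LAMA3 sits at 2.09 to 2.48 in the HeyA8 family while LAMB3 is at 428 to 769, and LAMB2 is at 0.0585 or less in OV2008 and C13.

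The head-to-head pairs of collagen IV, whose starts are given with the sequences, correlated over the libraries but did not keep a fixed ratio. COL4A1 and COL4A2 gave an r of 0.902 over the 12 libraries, with a ratio that ran from 0.374 to 1.42. COL4A3 and COL4A4 gave 0.882: both were highest in SK-OV-3 (139 and 51.8 CPM with vehicle) and SK-OV-3-TR (108 and 19.4), but in HeyA8 COL4A4 was at 6.03 and COL4A3 at 0.355. COL4A5 and COL4A6 gave 0.844, and their ratio ran from 1.62 in C13 to 162 in SK-OV-3-TR. That ratio rests on few COL4A6 counts, since its mean in the SK-OV-3 family with vehicle was 0.236 CPM. In the HeyA8 family COL4A5 was at 42.2 to 50.5 CPM and COL4A6 at 2.08 to 6.73. COL6A1 and COL6A2, chains of 1 molecule, gave 0.975. The third collagen VI chain of these, COL6A3, reached 17.7 CPM in HeyA8 and at most 2.37 in the 5 other lines, far below both partners in the HeyA8 family.

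Of the collagen I chains, COL1A1 was found in all 6 lines and COL1A2 at more than 6 counts only in SK-OV-3. COL1A1 was at 21.9 and 32.5 CPM in HeyA8, 0.727 and 1.07 in HeyA8-MDR, 12.6 and 9.31 in SK-OV-3, 34.1 and 39.4 in SK-OV-3-TR, 16.3 and 13.2 in OV2008 and 12 and 13.1 in C13. Its partner COL1A2 had 164 and 112 counts in SK-OV-3 and at most 6 counts in the other 10 libraries, and COL3A1, the other main fibrillar collagen of stroma, had at most 6 counts in any. Of the 7 fibroblast markers, DPT had 0 counts throughout and DCN and LUM at most 15 and 14, while between 0 and 5 of the list were above 3 counts in a library (4 in HeyA8 and 5 in SK-OV-3 with vehicle) and the list summed to 0.200 to 16.3 CPM. The part of these markers in the results was not tested.

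**Figure D3:**
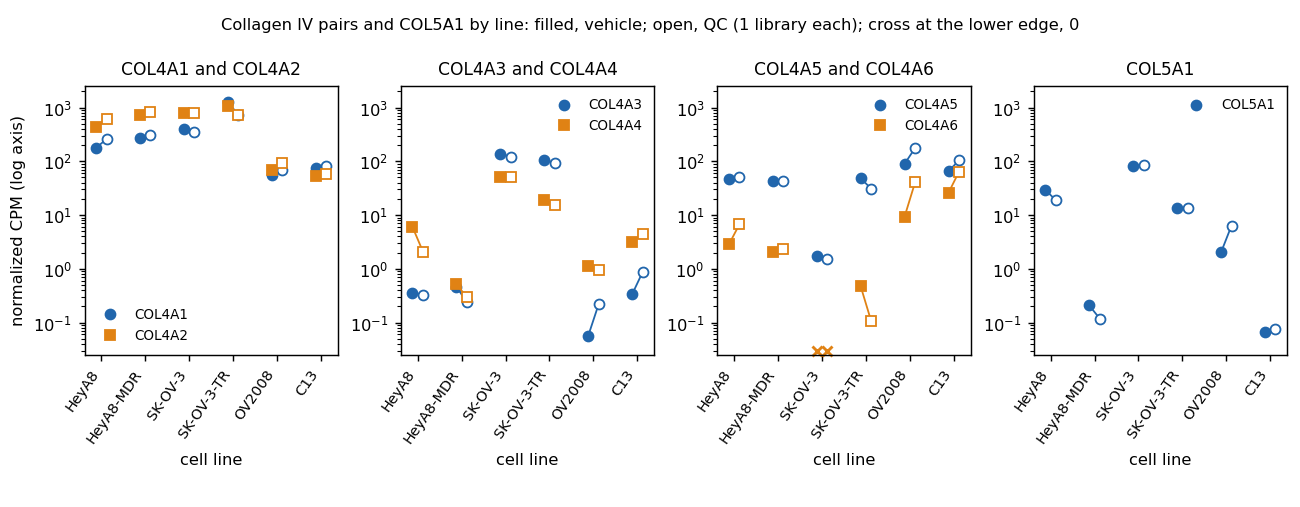
CPM (log axis) of the 3 head-to-head collagen IV pairs and of COL5A1 in the 6 lines; filled symbols are vehicle, open symbols QC, 1 library each, and a cross at the lower edge is a value of 0. COL4A3 and COL4A4 are both highest in SK-OV-3 (139 and 51.8 with vehicle), and COL5A1 is lower in the resistant line of each family (0.118 to 0.208 in HeyA8-MDR against 18.8 to 29.5 in HeyA8).

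Resistance was compared first over the 3 pairs with vehicle, by edgeR's quasi-likelihood test with family as the block. No member was called (0 of 18720 genes, 0%; DESeq2 called 48 genes, 1 of them a member). At an unadjusted p under 0.05 there were 3 of 42 members, 1 higher and 2 lower, against 3.65% of all genes, 1.94% higher and 1.71% lower. COL5A1, which starts and sizes the fibrils of collagen I, had the smallest p, with a log2 difference of -4.59 ± 0.986 (edgeR adjusted p = 0.995). COL17A1 gave -1.21 ± 0.415 and COL4A1 0.92 ± 0.346 (edgeR adjusted p = 0.995 for both). Next came LAMA2 (-2.10 ± 0.912), COL5A2 (-1.84 ± 0.819) and COL9A3 (2.34 ± 1.10), with COL2A1 and COL13A1, all with an unadjusted p above 0.05. COL2A1 had 0 to 2 counts in the sensitive and 2 to 20 in the resistant vehicle libraries.

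COL5A1 was lower in the resistant line of every family in both treatments. It had 666 and 513 counts in HeyA8 and 4 and 2 in HeyA8-MDR, 1951 and 1886 in SK-OV-3 and 455 and 250 in SK-OV-3-TR, and 36 and 145 in OV2008 and 2 and 2 in C13. In CPM these were 29.5 and 18.8 against 0.208 and 0.118, 81.6 and 85.6 against 13.4 and 13.3, and 2.02 and 6.39 against 0.0666 and 0.0754. The sensitive and resistant groups overlapped, with means of 37.7 ± 40.4 and 4.57 ± 7.68 CPM (SD, n = 3 lines each, vehicle), since SK-OV-3-TR lay above OV2008. Across the 18720 genes tested, 2 (0.0107%) were past 4-fold in the same direction in all 3 families and both treatments, COL5A1 and the pseudogene IPO5P1. DESeq2 gave COL5A1 an adjusted p of 0.000232, and among edgeR's alternatives it ran from 3.72e-06 without the filter to 1, so the call depends on the tool and the filter.

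Within single families, each line and treatment has 1 library and no test was made. A ratio (log2 with a prior count of 2) past 4-fold in the same direction in the vehicle pair and again in the QC pair was found for 5 of 42 members in the HeyA8 family (11.9%, against 1.05% of all genes), 12 in the SK-OV-3 family (28.6%, against 8.54%) and 7 in the OV2008 family (16.7%, against 2.20%). For higher and lower ratios apart, the shares of all genes were 0.0588% and 0.994%, 5.51% and 3.02%, and 1.27% and 0.935%. In HeyA8-MDR all 5 were lower: COL5A1, COL1A1, COL15A1, COL4A4 and COL6A3. COL18A1 was 7.01-fold higher there with vehicle but 1.74-fold higher with QC. COL9A3 was 5.88-fold higher with vehicle and 4.43-fold lower with QC. Its mean in this family with vehicle was 0.208 CPM, so both COL9A3 ratios rest on few counts and show no turn of direction. The QC pair holds the HeyA8 QC library, which lay nearer to HeyA8-MDR, and the part of this was not tested. COL1A1 was 27.1-fold lower with vehicle and 28.3-fold lower with QC, and COL4A4 10.1-fold and 5.69-fold lower. COL15A1, a collagen of the basement membrane zone, had 22 and 20 counts in HeyA8 and 0 in its partner.

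In the SK-OV-3 pair, COL4A5 was 26.3-fold higher in SK-OV-3-TR with vehicle and 19.6-fold with QC (1.76 and 1.5 CPM in SK-OV-3, 48.4 and 30.9 in SK-OV-3-TR). COL9A2, a chain of the fibril-associated collagen IX, was 14.4-fold and 9.31-fold higher, and LAMA1, the laminin alpha chain of the early embryo, 6.33-fold and 9.28-fold higher. COL13A1 and COL6A3 were also higher there, from 0 counts and from 5 and 4 counts in SK-OV-3. Lower in SK-OV-3-TR were LAMA4, LAMA2, COL7A1, LAMB3, COL5A1, COL12A1 and COL23A1. COL7A1, which forms the anchoring fibrils, was at 413 and 372 CPM in SK-OV-3 and 18.3 and 20.8 in SK-OV-3-TR. LAMA4, a laminin alpha chain of vessels, was 34.2-fold lower with vehicle (12.9 against 0.295 CPM) and LAMA2 17.5-fold lower, while LAMB3 was 7.07-fold and 10.5-fold lower. Of the untested members, COL21A1 (18 and 6 counts in SK-OV-3-TR, 0 in SK-OV-3) and COL1A2 were past the same limit.

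In C13, COL16A1, a fibril-associated collagen, was at 94.2 and 145 CPM against 1.68 and 2.69 in OV2008, a 53.4-fold and 52.3-fold difference, and COL9A3 rested on 50 and 106 counts against 6 and 4. Lower in C13 were COL5A2 (5.49 and 6.25 CPM against 103 and 57.2), COL8A2 (0.666 and 1.28 against 13.8 and 7.10), COL6A2, COL8A1 and COL5A1. COL5A2, the partner chain of COL5A1 in collagen V, was 18.5-fold lower with vehicle and 9.03-fold lower with QC. In the other pairs COL5A2 was less far apart, at 83.8 against 61.8 CPM in the HeyA8 pair and 5.69 against 2.57 in the SK-OV-3 pair with vehicle. COL5A1 was the only member past 4-fold in all 3 families.

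**Figure D4:**
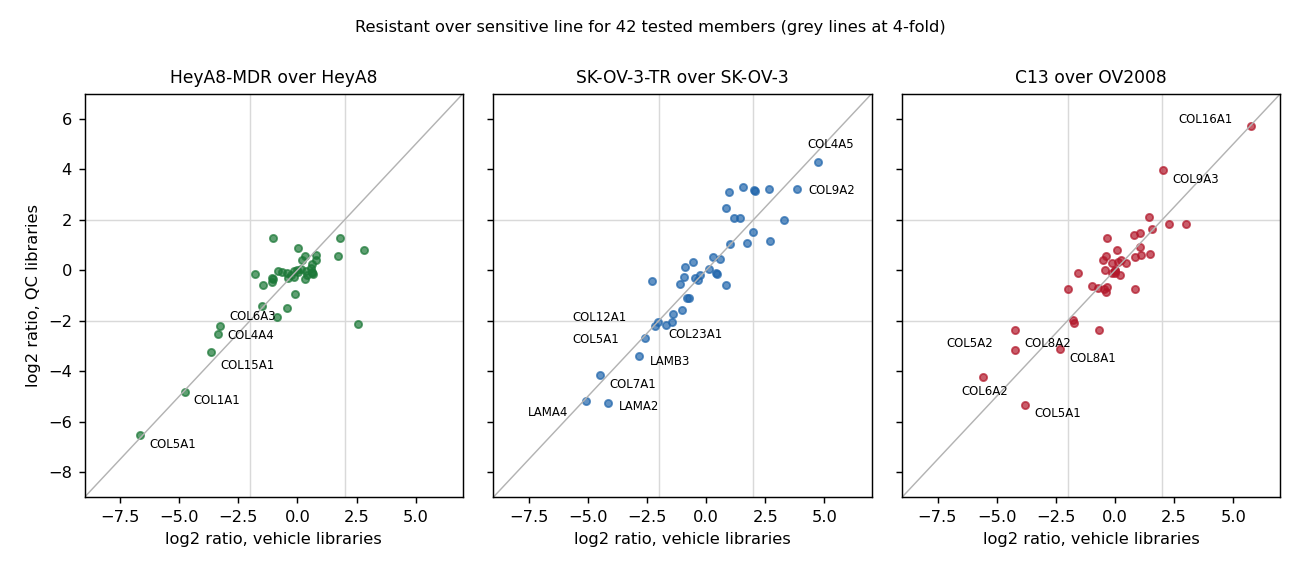
Log2 ratio of the resistant over the sensitive line for the 42 tested members, vehicle pair (horizontal) against QC pair (vertical), 1 panel per family; each point is a gene, the diagonal marks equal ratios and grey lines mark 4-fold. Named points are past 4-fold in both treatments; in the SK-OV-3 panel LAMA1, COL6A3 and COL13A1 are also past it without a name, and COL5A1 lies below -2 in every panel.

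QC was compared with vehicle over the 6 lines with the cell line as the block. No member was called by edgeR (0 of 18720 genes, 0%; DESeq2 called 522 genes, 1 of them a member). At an unadjusted p under 0.05 there were 6 of 42 members, 14.3% of them, against 15.2% of all genes (4 higher, 7.99%, and 2 lower, 7.18%), a share close to the background. COL13A1 had the smallest p, with a log2 change of 1.21 ± 0.301 (edgeR adjusted p = 0.155) and DESeq2's adjusted p = 0.0182. It was the anchoring and transmembrane group that held 3 of the 4 with a positive change, COL13A1, COL7A1 (0.62 ± 0.213, adjusted p = 0.209) and COL17A1 (0.45 ± 0.189, adjusted p = 0.291), with COL4A6 (1.05 ± 0.362, adjusted p = 0.215) as the other. Negative were COL6A2 (-0.41 ± 0.182, adjusted p = 0.314) and LAMA5 (-0.35 ± 0.159, adjusted p = 0.321), followed by LAMB2 (-0.38 ± 0.183) and COL5A2 (-0.30 ± 0.172), which had an unadjusted p above 0.05.

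LAMB2 was the only tested member whose 6 lines all moved 1 way with QC, downward (2.38% of members, against 8.73% of all genes, 4.13% higher and 4.60% lower). The line values were 193 to 182 CPM in HeyA8, 250 to 180 in HeyA8-MDR, 335 to 323 in SK-OV-3 and 163 to 109 in SK-OV-3-TR, and 10 counts or fewer in OV2008 and C13. The direction was counted without the floor of 3 counts. With it, LAMB2 has no value in OV2008, and COL13A1, with none in SK-OV-3, rose in every other line. Without HeyA8 the log2 change of COL13A1 was 1.19 and that of COL4A6 1.02, both still with an adjusted p above 0.05. Without OV2008, COL4A6 gave 0.69.

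In the sensitive lines alone, 3 of 42 members had an unadjusted p under 0.05, 2 higher and 1 lower, against 6.59% of all genes (3.55% higher, 3.04% lower), and none was called (0%). They were COL4A6 (1.70 ± 0.477), COL13A1 (1.58 ± 0.478) and COL5A2 (-0.60 ± 0.219), with adjusted p from 0.621 to 0.682. COL7A1 (0.61 ± 0.314), COL8A2 (-0.84 ± 0.439), COL6A2 (-0.47 ± 0.260) and LAMC3 (-0.95 ± 0.554) came next, with COL2A1 at 22 counts in OV2008 with QC and at most 2 in the other sensitive libraries. Without HeyA8 no member was called and 4 had an unadjusted p under 0.05: COL4A6 gave 2.11 and COL5A2 -0.54, and COL13A1 rested on 10 counts in OV2008 with QC and 0 in the other 3 libraries. In the resistant lines there were also 3, 2 higher and 1 lower, against 6.03% (3.43% higher, 2.59% lower), COL17A1 (0.85 ± 0.237), COL13A1 (0.96 ± 0.410) and LAMB2 (-0.63 ± 0.258), with adjusted p from 0.816 to 0.818. COL7A1 (0.64 ± 0.318), COL6A3 (0.62 ± 0.441), LAMA5 (-0.40 ± 0.241), COL6A1 (-0.27 ± 0.216) and COL6A2 (-0.35 ± 0.300) followed. The difference between the 2 groups was tested directly and gave 1 member with an unadjusted p under 0.05, COL17A1 (0.78 ± 0.331, adjusted p = 1), against 1.16% of all genes (0.566% above 0 and 0.593% below). Next were COL5A2 (0.64 ± 0.315), COL6A3 (1.05 ± 0.680) and COL8A2 (0.95 ± 0.634) above 0, and COL4A6 (-1.27 ± 0.645), COL4A2 (-0.43 ± 0.297), LAMB2 (-0.51 ± 0.371) and COL4A1 (-0.40 ± 0.324) below it. Without HeyA8 the difference for COL17A1 was 0.80 and that for COL4A6 -1.65, and that for COL6A3 was 0.39.

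The median log2 change of the members with more than 3 counts was 0.34 in OV2008 and 0.54 in C13, where 23 and 31 of 35 were above 0, and -0.18 in SK-OV-3 and -0.26 in SK-OV-3-TR, where 7 of 39 and 13 of 42 were. HeyA8 and HeyA8-MDR lay between, at -0.09 and -0.01. The median over all tested genes was within 0.0047 of 0 in every line, but without the floor of 3 counts, so the 2 sets are not alike. The share of all genes above 0 was not counted. This family comparison was added after the values had been seen. The QC effect of each family was then tested against the mean of the other 2 in 1 fit over the 12 libraries.

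For the OV2008 family, no member had an edgeR adjusted p under 0.05 (10 of 18720 genes did, 0.0534%, 0.0427% higher and 0.0107% lower; DESeq2 called 774 genes and 5 members), and 14 of 42 had an unadjusted p under 0.05, 12 with a larger and 2 with a smaller change, against 7.32% and 7.53% of all genes, 14.9% together. COL5A1 came first (1.86 ± 0.370, adjusted p = 0.0831), followed by COL4A5 (1.05 ± 0.213, adjusted p = 0.0879). The value of COL5A1 was that of OV2008, where it went from 2.02 to 6.39 CPM with QC while C13 had 2 counts in each library, and without OV2008 it was 0.48. DESeq2 gave it an adjusted p of 0.0153. COL4A5 went from 89.7 to 177 CPM in OV2008 and from 65.6 to 104 in C13, against 46.9 to 50.5 in HeyA8, 42.2 to 42.5 in HeyA8-MDR, 1.76 to 1.5 in SK-OV-3 and 48.4 to 30.9 in SK-OV-3-TR.

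All 6 collagen IV genes lay above 0 in this difference (median 1.04, against 0.027 over all genes), and 4 of them had an unadjusted p under 0.05: COL4A5, COL4A3 (1.78 ± 0.475), COL4A6 (2.33 ± 0.606) and COL4A4 (1.03 ± 0.365). The difference is not a rise of all 6 in both lines. COL4A4 changed by -0.19 in OV2008 and 0.48 in C13 on the log2 scale, against -1.49 in HeyA8 and -0.66 in HeyA8-MDR. COL4A1 changed by 0.31 and 0.13 in OV2008 and C13, by 0.54 and 0.17 in HeyA8 and HeyA8-MDR, and by -0.16 and -0.81 in SK-OV-3 and SK-OV-3-TR. COL4A6 went from 9.35 to 40.8 CPM in OV2008 and from 26.0 to 64.2 in C13. COL4A3 rested on 1 and 5 counts in OV2008 and 10 and 23 in C13. COL2A1, the cartilage collagen, had 0 and 2 counts with vehicle and 22 and 38 with QC in these lines. Without HeyA8, 3 of 43 members had an adjusted p under 0.05, against 2.01% of all genes, and without HeyA8-MDR 5 of 45, against 2.48%. Without SK-OV-3 or SK-OV-3-TR there were 0, against 0.0150% and 0%. Without OV2008 or C13 the family holds 1 line, so such a fit cannot show whether the difference depends on 1 line.

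For the SK-OV-3 family the 11 members with an unadjusted p under 0.05 all had a smaller change than the other families, against 5.12% of all genes for that direction, 5.03% for the other and 10.2% together, and no gene was called (0%; DESeq2 called 237 genes and 3 members). COL27A1 (-0.90 ± 0.197, adjusted p = 0.230), COL4A5 (-0.95 ± 0.232, adjusted p = 0.256) and COL12A1 (-0.75 ± 0.218, adjusted p = 0.315) were among them, with COL11A2 (-1.65 ± 0.437), COL4A1 (-0.77 ± 0.242) and COL4A2 (-0.63 ± 0.244). Above 0 the smallest p was that of LAMB2 (1 ± 0.469, adjusted p = 0.516). LAMB2 itself fell with QC in SK-OV-3 (log2 -0.052), SK-OV-3-TR (-0.58), HeyA8 (-0.079) and HeyA8-MDR (-0.47). Its positive differences here and in the HeyA8 comparison come from the OV2008 family, where it had a mean of 0.222 CPM with vehicle. COL4A1 went from 1280 to 731 CPM in SK-OV-3-TR and from 391 to 350 in SK-OV-3. For the HeyA8 family there were 5 with a larger and 2 with a smaller change, against 4.76% and 5.82%, 10.6% together, and no gene was called (0%; DESeq2 called 219 genes and 0 members). COL5A1 (-1.45 ± 0.334, adjusted p = 0.329) and COL4A4 (-1.41 ± 0.392, adjusted p = 0.350) had the smallest p, followed by COL11A2 (1.78 ± 0.509), COL6A2 (0.76 ± 0.283), COL18A1 (1.46 ± 0.562), COL12A1 (0.51 ± 0.219) and LAMB2 (1.06 ± 0.468). Without HeyA8-MDR, 2 of 45 members were called in the SK-OV-3 comparison, against 1.67% of all genes. In HeyA8, COL18A1 went from 17.8 to 70.4 CPM and COL4A4 from 6.03 to 2.08, both toward the 125 and 0.519 of HeyA8-MDR with vehicle. These 3 comparisons share all their libraries.

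**Figure D5:**
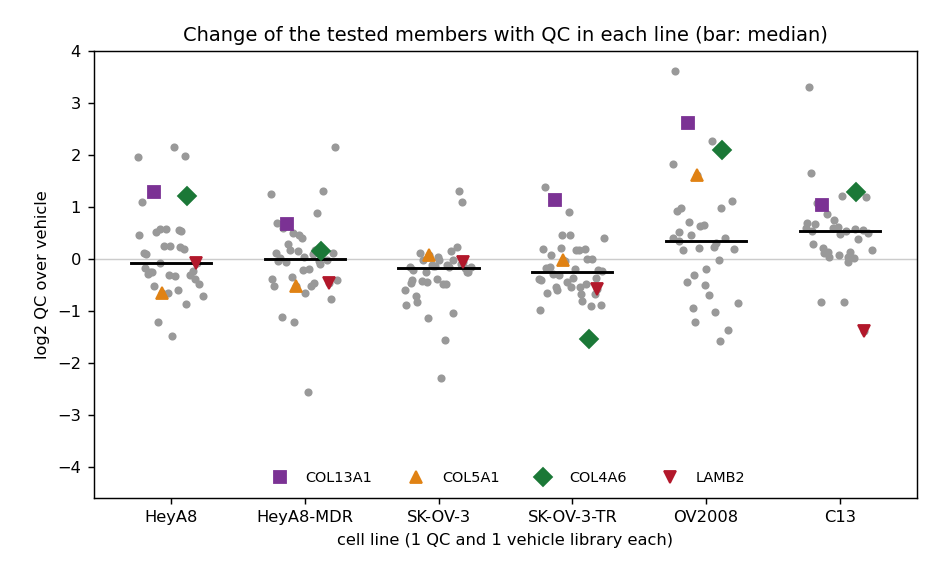
Log2 ratio of QC over vehicle in each line for the tested members with more than 3 counts in 1 of the 2 libraries (1 point per gene, side spread for legibility only; black bar, median). Medians are 0.34 and 0.54 in OV2008 and C13 and -0.18 and -0.26 in SK-OV-3 and SK-OV-3-TR, and the 4 named genes are set apart by symbol.

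Genes that fold, process, bind and degrade collagens and laminins differed between families as well. In the HeyA8 family, 3 of 19 tested genes of collagen folding and modification and 3 of 13 of procollagen processing and crosslinking were higher and none lower, as were 3 of 11 basement membrane partners with 3 lower (4.64% of all genes were higher and 2.76% lower). MMP14, the membrane protease that cuts collagen I, was at 1298 to 1853 CPM in the HeyA8 family, 1.09 to 2.54 in the SK-OV-3 family and 109 to 180 in the OV2008 family (6.82 in the HeyA8 contrast, edgeR adjusted p = 0.00215, and -8.37 in the SK-OV-3 contrast, adjusted p = 0.00490). DDR2, a receptor for fibrillar collagen, was at 101 to 372 CPM in the HeyA8 family and had 8 counts or fewer in OV2008 and C13 (adjusted p = 0.00421 in the HeyA8 and 0.00901 in the OV2008 contrast). In the SK-OV-3 family HSPG2, the basement membrane proteoglycan perlecan, was higher (4.89, adjusted p = 0.00831), and 0 of 19 folding genes were called, against 11.9% of all genes. In the OV2008 family PXDN, which crosslinks collagen IV, had at most 4 counts per library against 3960 to 20445 elsewhere (adjusted p = 0.00591), 3 of 13 processing genes were lower against 4.20% of all genes, and ITGB4, the laminin receptor subunit of hemidesmosomes, was higher (5.43, adjusted p = 0.00977).

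With QC over 6 lines no gene of these lists was called. P3H4, of the prolyl 3-hydroxylase family, gave -0.80 ± 0.178 (edgeR adjusted p = 0.141) and AGRN, a laminin-binding proteoglycan, -0.44 ± 0.114 (adjusted p = 0.157). Between resistant and sensitive lines the smallest adjusted p was 0.995, with DDR2 at -2.31 ± 0.514 and ITGA6 at -1.20 ± 0.383. TIMP3 (-1 ± 0.270) and MMP7 (-1.98 ± 0.544) came first for QC in the sensitive lines, P3H4 (-0.86 ± 0.269) and PLOD2 (0.54 ± 0.183) in the resistant lines, and LOX (0.85 ± 0.286) and ADAMTS3 (1.62 ± 0.787) in the difference. None of these passed the test. The QC difference of the OV2008 family was called for ITGA2, a collagen receptor subunit (1.75 ± 0.208, adjusted p = 0.0377), which went from 82.5 to 257 CPM in OV2008 and from 67.8 to 166 in C13 and was lower with QC in the other 4 lines. HSPG2 followed at 1.55 ± 0.256 (adjusted p = 0.0657). The OV2008 comparison was added after the values had been seen. Without SK-OV-3-TR no gene was called in it (0 of 19307), so ITGA2 lost its call there. Without SK-OV-3 it called 3 genes, without HeyA8 400 and without HeyA8-MDR 499. In the HeyA8 difference ITGB4 (2.11 ± 0.471) and HSPG2 (-1.18 ± 0.265) came first, and in the SK-OV-3 difference ITGA2 (-1.10 ± 0.211) and ITGA7 (-1.69 ± 0.427), with no call in either.

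The 14 members that did not pass the filter had at most 164 counts in any library. They were the fibrillar COL1A2, COL3A1 and COL11A1, the fibril-associated COL9A1, COL14A1, COL19A1, COL20A1, COL21A1 and COL22A1, the network-forming COL10A1, the collagen VI relatives COL6A5, COL6A6 and COL28A1, and LAMB4. COL20A1 had 31 counts in OV2008 and 23 in C13 with QC against 0 and 6 with vehicle, and no other of the 14 had over 26 counts except COL1A2. The passing members that were low in most libraries included COL2A1, COL5A3, COL9A3, COL15A1, COL23A1, COL25A1 and COL26A1, each with at least 1 library at 0 counts.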

How the data were processed

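The authors deposited 1 table of raw counts per gene, with no normalization, for the 12 libraries; each column matched 1 sample title. The study's methods name TopHat, hg19 and HTSeq, while the submitters' processing notes name STAR 2.7.3a, HTSeq 0.6.1p1 and GRCh38.p13; the table names no build, and the strand setting is not given in the sources used here, so reads of overlapping genes cannot be told apart. Of 60669 gene identifiers, 58663 were paired with a symbol, and the others held 0.132% of counts. Library totals were 17782556 to 30585059 (median 22289428).

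Counts were tested with edgeR 4.0.16 (R 4.3.3; limma 3.58.1) by the quasi-likelihood test after TMM scaling and filterByExpr (minimum count 10, minimum total 15, over the 4 groups), with Benjamini-Hochberg adjustment over 18720 genes and a threshold of 0.05. QC fits had the cell line as block, since vehicle and QC libraries come from the same line (correlation of deviations 0.893 to 0.929), and the resistance fit had the family as block (0.695 to 0.763). Ratios within a line or pair used a prior count of 2 and a limit of 4-fold; no fitted fold is given where a group had 3 counts or fewer. Named members were those called (the 8 smallest p in each direction), the 4 smallest p in each direction where a comparison had no call, collagen IV pairs and chains of 1 molecule, and the 4 largest ratios in each direction past 4-fold in a pair, and, of the other lists, the 2 smallest p in each comparison. Members named beyond these, with ITGB4, were chosen after their values were seen. Counts cover all tested members, of which 1 is not reported here by name. Alternatives were DESeq2 1.42.0, other scalings and filters, fits without the block and without each line. The members and gene lists were chosen with earlier results of these data known. The comparison of QC effects between families, with its alternatives, was added after the values had been seen. Promoter sequences came from RefSeq (GRCh38.p14), with windows for 41 of 56 members.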

Additional observations from a re-analysis of the deposited data

How the results depend on the processing

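Family calls depended on the tool and the filter: against 7, 15 and 12 of 42 members for the HeyA8, SK-OV-3 and OV2008 families, DESeq2 called 17, 24 and 21 of 42 (and 20.4%, 27.2% and 24.6% of all genes), and edgeR without the filter 17, 30 and 23 of 56 (9.41%, 12.9% and 11.4%). Scaling by library size alone gave 8, 18 and 12, and TMM had moved the median of all genes against it by 0.21, -0.26 and 0.053 on the log2 scale. With at least 10 counts required in every library, 4 of 21 members were called in the HeyA8 family, 3 of them among the 7. Leaving out each line of the other families in turn gave 6 to 14, 3 to 14 and 10 to 15 calls. Of all genes, 2.09% to 9.44%, 0.916% to 8.31% and 4.59% to 11.9% were called in these fits. Where 1 line of a family was left, it was assumed to vary like the others. Such a fit cannot show whether a call depends on 1 line. Where edgeR called no member, DESeq2 called 1 for QC over 6 lines, 1 for resistance, and 3 and 5 for the QC differences of the SK-OV-3 and OV2008 families. Without the filter the counts were 5 for QC over 6 lines, 1 for the sensitive lines, 1 for resistance, and 1, 6 and 7 for the QC differences of the HeyA8, SK-OV-3 and OV2008 families, and leaving out a line gave 0 to 1, 0 to 2 and 0 to 5. The causes were not tested. Without the replicate block, 0 members were called in every QC and resistance comparison. For COL6A2, leaving out each line gave QC differences of -0.32 to 0.66 for the SK-OV-3 family and -1.28 to 0.26 for the OV2008 family, with the sign turned without OV2008. Of 515 other values of named members under settings that kept all lines, 490 kept their direction and side of the threshold, as did 436 of 510 without 1 line, where 65 lost a call, 7 gained one and 2 turned sign. Members with few counts, such as COL5A1 in C13 and LAMB2 in OV2008, have imprecise ratios. Of all values from 1 to 20, 67.2% were even (37789 values of 2 against 15595 of 1), so that a count may not be 1 fragment and the floor of 3 counts may stand for fewer; whether both mates of a pair were counted was not tested.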
